A study of Mus musculus with 12 samples.

Results

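Nuclear-encoded respiratory chain subunits are the proteins of the 5 oxidative phosphorylation complexes whose genes lie in the cell nucleus. Here they were the 86 protein-coding genes whose mouse symbols begin with the family names of complex I (Ndufa, Ndufb, Ndufc, Ndufs, Ndufv), complex III (Uqcr), complex IV (Cox4 to Cox8) or complex V (Atp5), together with Sdha, Sdhb, Sdhc, Sdhd and Cyc1, out of 48526 genes counted. Assembly factors of complex I (Ndufaf) were left out. Membership was set by the symbol and not by a measured value of the gene. By complex they were 36 genes of complex I, 4 of complex II, 9 of complex III, 20 of complex IV and 17 of complex V, with Ndufa4 and Ndufa4l2 placed in complex IV, where the Ndufa4 protein is now assigned.

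RNA sequencing compared sorted cardiac Purkinje cells (PCs), the conduction cells that carry the impulse into the ventricles, with ventricular myocytes (VMs), the working muscle cells. Both came from adult male mice that were either wild type (WT) or constitutively null for Ncam-1 (Ncam-1-/-, KO), which lack this adhesion molecule in every cell and not in PCs alone. All mice carried the Cntn2-EGFP reporter, a bacterial artificial chromosome in which the Contactin-2 gene drives EGFP, and each of the 4 groups (WT PC, KO PC, WT VM, KO VM) had 3 libraries. The labels do not tie libraries to separate animals, so p-values measure the spread between these libraries, which may in part be technical. Dissociated hearts were stained with TMRM at 50 nM for 15 min, a dye that charged mitochondria take up, and red cells with EGFP were collected as PCs and red cells without it as VMs, so every library was itself selected on mitochondrial dye.

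The respiratory chain passes electrons from NADH (complex I) and succinate (complex II) through complex III and cytochrome c to oxygen at complex IV, and the proton gradient that this builds drives ATP synthesis at complex V. A few subunits, those of complexes I, III, IV and V that sit deepest in the membrane, are made inside the mitochondrion from its own genome. All others, and the whole of complex II, are transcribed in the nucleus, made in the cytosol and imported. Heart muscle is among the tissues richest in these proteins, and complex IV has heart and skeletal muscle forms of some subunits (COX6A2, COX7A1, COX8B in the mouse) beside forms found in most tissues (COX6A1, COX7A2, COX8A).

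The pair that carried the clearest difference between the cell types was Cox6a2 and Cox6a1. The final stretches of their coding sequences are shown because reads of the 2 genes must be told apart for the comparison to hold. They are the mouse GENCODE M21 sequences (GRCm38), 5′ to 3′, on the minus strand of chromosome 7 between 128205729 and 128205950 for Cox6a2 and of chromosome 5 between 115345843 and 115348615 for Cox6a1, introns left out, with capitals at each base that differs between them.

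Cox6a2: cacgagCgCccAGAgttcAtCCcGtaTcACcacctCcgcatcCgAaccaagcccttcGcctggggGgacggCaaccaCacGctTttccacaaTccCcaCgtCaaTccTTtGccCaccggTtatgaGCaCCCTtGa

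Cox6a1: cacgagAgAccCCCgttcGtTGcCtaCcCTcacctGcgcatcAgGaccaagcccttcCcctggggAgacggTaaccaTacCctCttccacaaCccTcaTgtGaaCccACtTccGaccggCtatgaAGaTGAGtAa

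Over these 135 bases the 2 sequences differed at 38 positions, and the longest identical run was 12 bases. Over the whole aligned coding sequence they were identical at 180 of 288 bases (62.5%), and within the printed stretch no read of 50 bases can match both genes. Of the 50-base windows of the principal transcript, 3.33% in Cox6a2 and 12.3% in Cox6a1 also occurred in a transcript of another gene. In Cox6a2, 10.3% of the exon bases lay inside exons of the neighbouring gene Itgad.

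The stretch before the transcription start was read from RefSeq promoters (GRCm38.p6) for 69 of the 86 genes, 67 of them by symbol and 2 by a synonym. Cox6a2, Cox6c, Cox4i1, Atp5a1, Atp5mpl, Cyc1, Ndufa2, Ndufs1, Sdhc, Uqcrb and Uqcrq were among those with no entry. In the 250 bases before the start, a match to the NRF1 motif, the palindrome bound by nuclear respiratory factor 1 (all motifs were searched on both strands), was found in 13 of these 69 genes (18.8%) and in 4.23% of the 27025 genes with an entry. A match to the ETS motif CCGGAAG, which GA-binding protein also binds, was found in 12 (17.4%, against 7.83%), and 3 of the 69 held both. YY1 (AANATGGC) was matched in 6 (8.70%, against 4.49%), the E-box CANNTG in 44 (63.8%, against 69.3%), the MEF2 motif in 1 (1.45%, against 3.70%) and the ERR motif TCAAGGTCA in 1 (1.45%, against 0.422%). A match is a run of letters and not a measured binding site.

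Sdha, which was lower in PCs, and Cox6a1, the widely used partner of Cox6a2, are shown with their NRF1 matches in capitals. In Cox6a1 the only ETS match of the window is in capitals as well. Cox8b, a heart form, is shown with its only E-box in capitals. Each is written 5′ to 3′ on the minus strand, at chr13:74350241-74350490, chr5:115348959-115349208 and chr7:140900447-140900696.

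Sdha: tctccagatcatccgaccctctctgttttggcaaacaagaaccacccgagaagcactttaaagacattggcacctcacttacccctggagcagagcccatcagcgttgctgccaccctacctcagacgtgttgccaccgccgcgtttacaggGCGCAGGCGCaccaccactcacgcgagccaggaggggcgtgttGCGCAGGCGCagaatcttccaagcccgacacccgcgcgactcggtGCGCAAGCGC

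Cox6a1: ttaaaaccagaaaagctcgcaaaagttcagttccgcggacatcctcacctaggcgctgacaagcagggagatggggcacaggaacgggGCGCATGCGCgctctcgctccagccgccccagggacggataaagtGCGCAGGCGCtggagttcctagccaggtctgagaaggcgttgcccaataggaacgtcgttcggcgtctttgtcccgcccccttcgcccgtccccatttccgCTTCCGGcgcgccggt

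Cox8b: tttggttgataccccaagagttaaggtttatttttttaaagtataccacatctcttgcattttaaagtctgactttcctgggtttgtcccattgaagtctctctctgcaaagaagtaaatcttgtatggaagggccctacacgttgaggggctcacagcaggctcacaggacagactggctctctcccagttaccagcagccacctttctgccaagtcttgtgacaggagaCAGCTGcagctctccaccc

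The NRF1 matches of Sdha began 98, 55 and 10 bases before the RefSeq start, and those of Cox6a1 began 162 and 117 bases before it. The GENCODE M21 transcripts of both genes start upstream of the RefSeq start. By these, the nearest NRF1 match of Sdha and the ETS match of Cox6a1 lie inside the transcript. Cox8b held no NRF1 or ETS match in this window.

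Counts outside the mitochondrial genome, to which all levels were scaled, ran from 1532393 to 6761356 per library, and mitochondrial genes took 79.0% to 91.3% of all gene counts. WT PC replicate 2 stood apart from the rest. In it 63.9% of the reads were not aligned (18.8% to 24.7% in the other 11 libraries), mitochondrial genes took the highest share, and 11847 genes were detected, against at least 13571. Counts on Ncam1 were 83, 34 and 116 in the WT PCs, 0, 1 and 1 in the KO PCs, 6, 0 and 9 in the WT VMs and 0 in each KO VM. Purkinje markers (9 genes) summed to 359 to 1150 CPM (counts scaled to library size) in the WT PCs and 28.7 to 45.7 CPM in the 6 VMs. KO PC replicates 1 and 2 held only 125 and 114 CPM, against 559 CPM in KO PC replicate 3. Of these 9 markers 7 passed adjustment as higher in PCs over both genotypes, where 1.20% of all genes passed. Irx3 overlapped between the cell types, at 2.85 to 8.46 CPM in PCs and 3.57 to 12.4 CPM in VMs. Cntn2, also on the list, drives the reporter used for sorting. Cardiomyocyte markers (13 genes) summed to 170431 to 257390 CPM in PCs and 236305 to 275608 CPM in VMs. Markers of non-muscle cells were higher in PCs: fibroblast genes (8) summed to 274 to 765 CPM against 32.1 to 179 CPM in VMs, endothelial genes (8) to 329 to 948 against 39.9 to 289, and leukocyte genes (8) to 87.5 to 229 against 5.35 to 50.0. The smooth muscle and pericyte list (8 genes) summed to 1336 to 2219 CPM in PCs and 1485 to 1709 CPM in VMs, most of it from Abcc9 (921 to 1590 CPM). Over both genotypes 6 of the 7 genes of this list that were tested were higher in PCs, with a median log2 fold change of 1.34. The median of all genes was -0.01, and 2 of the 7 passed adjustment, where 1.20% of all genes did. Pcp4 was at 0 in all VMs and in KO PC replicate 1. Of the leukocyte genes C1qa, Cd14, Cd68, Csf1r, Itgam and Ptprc were at 0 in at least 1 library, as were Tie1 of the endothelial list, Cnn1 and Pdgfrb of the smooth muscle list and Scn10a of the Purkinje list. The part of these cells in the differences below was not tested. In RNA from sorted pools, fewer cells of a type and less RNA per cell cannot be told apart.

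In 11 of the 12 libraries the 86 genes together took a narrow share of the counts outside the mitochondrial genome, from 4.91% to 6.08%. WT PC replicates 1, 2 and 3 gave 4.91%, 9.38% and 5.30%, the KO PCs 6.01%, 5.72% and 4.98%, the WT VMs 5.12%, 5.91% and 5.55%, and the KO VMs 6.08%, 5.37% and 5.77%. WT PC replicate 2 alone lay outside this range. The other WT PCs lay below all 3 KO VMs, and they overlapped the KO PCs and the WT VMs. On the CPM scale with TMM factors (a correction for library composition) the sums were 64269 ± 25371 (SD, n = 3) in WT PCs, 53025 ± 3339 in KO PCs, 56958 ± 3332 in WT VMs and 59523 ± 3661 in KO VMs. Without replicate 2 the WT PC sum was 49622 ± 162 (n = 2), and on this scale both remaining WT PCs lay below all 3 WT VMs (53524 to 60178), so whether WT PCs lay above or below WT VMs turned on that library.

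**Figure D1:**
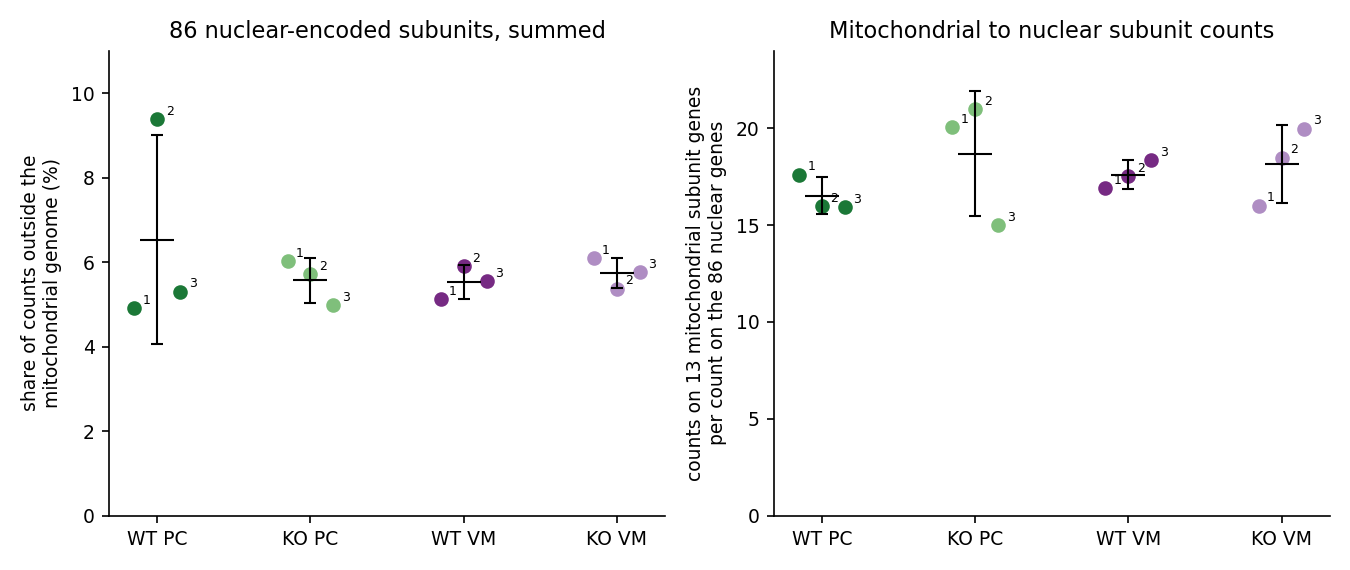
Left, the share (%) of counts outside the mitochondrial genome that fell on the 86 nuclear-encoded subunit genes; right, counts on the 13 subunit genes of the mitochondrial genome for each count on the 86. Points are libraries, numbered by replicate, with mean and SD bars; WT PC replicate 2 stands at 9.38% on the left, while its ratio on the right lies within the range of the other WT PCs (15.9 to 17.6).

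The summed counts on the 13 subunit genes of the mitochondrial genome were also high in that library. This was uneven: mt-Nd1, mt-Nd2, mt-Nd4, mt-Nd5, mt-Nd6, mt-Cytb, mt-Co2, mt-Co3 and mt-Atp6 had their highest level there, while mt-Co1 was at 301326 CPM (288088 to 573513 in the other libraries) and mt-Nd3, mt-Nd4l and mt-Atp8 lay within the range of the others. Per count on the 86 nuclear genes, the 13 mitochondrial genes had 16.5 ± 0.951 counts in the WT PCs (SD, n = 3), 18.7 ± 3.23 in the KO PCs, 17.6 ± 0.739 in the WT VMs and 18.2 ± 2.01 in the KO VMs. The WT PCs ran from 15.9 to 17.6, with replicate 2 inside this range. These ratios use no scaling between libraries. They overlapped in all 4 groups, and WT PC replicate 2 did not stand out. The ratios rest on part of the 13 genes. In every library mt-Co2, mt-Co3, mt-Atp6, mt-Atp8 and mt-Nd4l lay between 9.01 and 535 CPM, far below mt-Co1.

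In WT PC replicate 2, 72 of the 81 subunit genes with enough counts to test lay above the mean of the other WT PCs, by a median of 1.02 on the log2 scale, while the median of 5168 genes was -0.15. The gain was larger for short transcripts: the median was 1.14 for the 47 genes with principal transcripts under 1000 nt and 0.61 for the 34 longer ones. Across the 81 genes the rank correlation of deviation with transcript length was -0.41, and across the 5168 genes it was -0.33, both as descriptions of 1 library. Complex IV in this library summed to 25137 CPM (10483 to 13649 CPM in the other 11), complex I to 25727 CPM (11358 to 14297) and complex II to 4131 CPM (3127 to 4739). The sum of complex II was above the other WT PCs (3332 and 3127 CPM) but within the range of the 11 libraries, and its genes differed. Sdhb was at 1545 CPM against 744 and 829 CPM in the other WT PCs, while Sdha, at 1371 CPM, lay between them (1549 and 1154 CPM). Values without replicate 2 are therefore given beside the WT PC comparisons below.

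**Figure D2:**
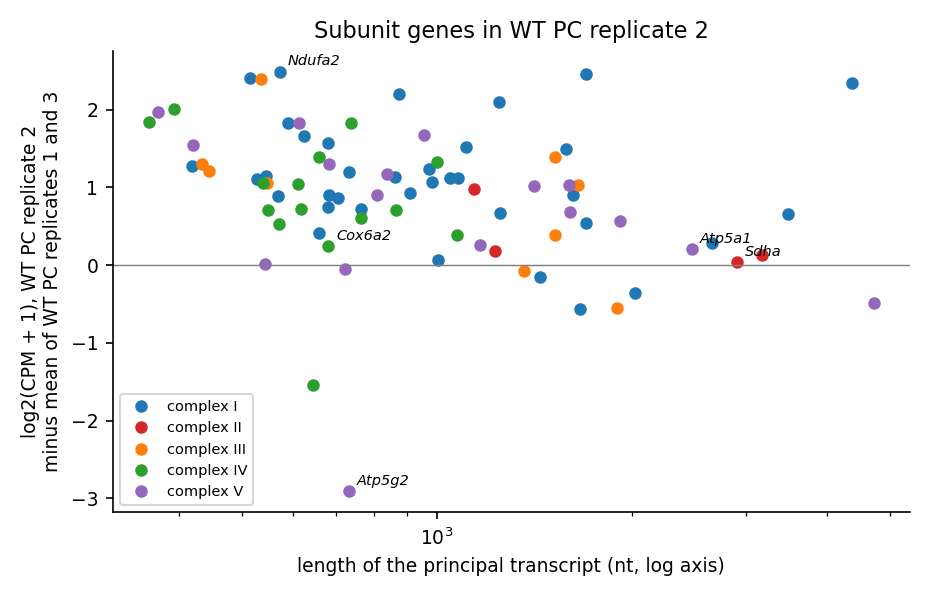
Each point is 1 of 81 subunit genes, coloured by complex; the horizontal axis is the length of the principal transcript (nt, log axis) and the vertical axis the log2(CPM + 1) of WT PC replicate 2 minus the mean of WT PC replicates 1 and 3. Most points lie above 0 (72 of 81) and the median is higher for transcripts under 1000 nt (1.14) than for longer ones (0.61); Sdha lies near 0 (0.04).

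Levels of single genes were compared per kilobase of principal transcript, as means of the 12 libraries. The 5 genes too low to test were Cox4i2, Cox6b2, Cox7b2, Cox8c and Ndufa4l2, isoforms known from lung and hypoxic tissue, testis or other organs, at 0 to 1.43 CPM per kb. Only Cox8c had at most 3 counts in each library (0 in all 12). The most abundant were Atp5g3 at 3102 CPM per kb, which encodes the c subunit of the ATP synthase rotor, then the complex IV subunit Ndufa4 at 2813 and Cox6c at 2485. The lowest of those tested were Ndufb2 at 17.4 CPM per kb, Atp5g2 at 22.3 and Atp5s (coupling factor B) at 26.0. These values depend on the transcript taken as principal, which for Ndufb2 was 4371 nt long. In Atp5g2, 87.4% of the 50-base windows also occur in other genes, so its level is uncertain, as it is in part for the 30 genes in which this share was over 10%.

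Median levels by complex were 328 CPM per kb for the 36 genes of complex I, 620 for the 4 of complex II, 566 for the 9 of complex III, 1292 for the 15 tested genes of complex IV and 1161 for the 17 of complex V. Within a complex the genes spanned 4.49-fold (complex II) to 139-fold (complex V). The isoform pairs were unequal. Cox6a2 was at 1387 CPM per kb and Cox6a1 at 159, Cox8b at 2272 and Cox8a at 165, and Cox7a1 at 2096 and Cox7a2 at 1003. Of the 3 genes for the c subunit, Atp5g3 at 3102 lay above Atp5g1 at 293 and Atp5g2 at 22.3. The gap to Atp5g1 came in large part from the lengths used, 4715 nt for Atp5g1 and 723 nt for Atp5g3. Before division by length the group means were 1091 to 1706 CPM for Atp5g1 and 2116 to 2398 CPM for Atp5g3. Cox4i1 was at 2023 CPM per kb, against 0.316 for Cox4i2, Cox6b1 at 1203, against 1.43 for Cox6b2, and Cox7a2l, which helps join complexes III and IV, at 144.

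**Figure D3:**
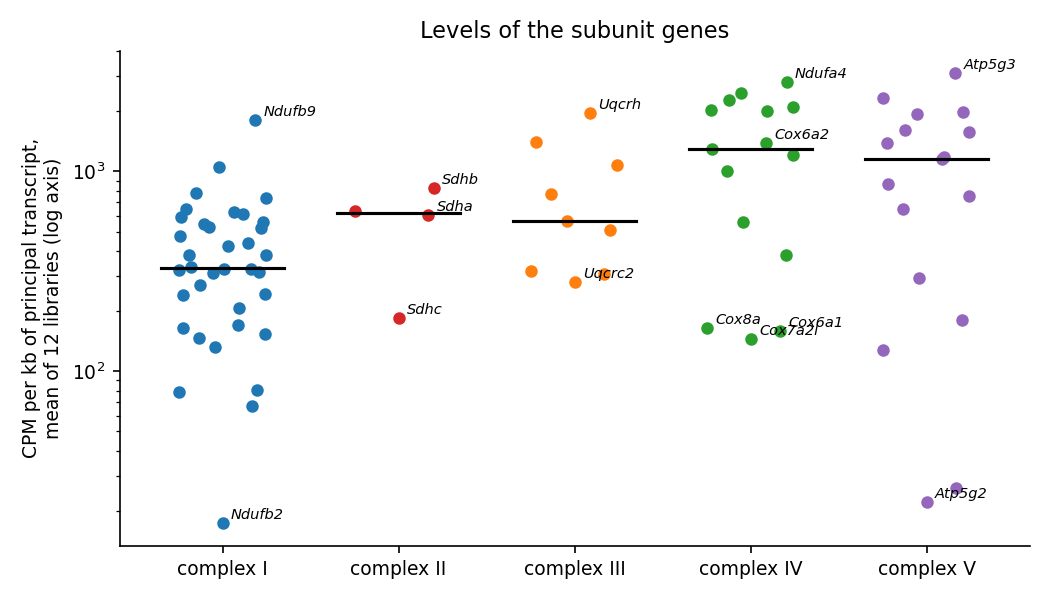
CPM per kb of principal transcript (mean of 12 libraries, log axis) of the 81 tested subunit genes by complex; points are genes and black lines medians (328, 620, 566, 1292 and 1161 for complexes I to V). Complexes IV and V have the highest medians and complex I the lowest, and Cox6a2 lies well above Cox6a1.

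The first question was whether PCs and VMs differ in these genes. Cox6a2, the heart and muscle form of a regulatory complex IV subunit, was higher in PCs in both genotypes. It stood at 1582, 1632 and 1195 CPM in the WT PCs and 720, 876 and 546 CPM in the WT VMs. In the KO it stood at 966, 863 and 1282 CPM in the PCs and 628, 499 and 526 CPM in the VMs. Within each genotype the PCs and VMs did not overlap. In WT 6 of the 81 members were higher in PCs without overlap and 6 lower (6.67% and 7.17% of all genes). In KO 3 were higher and 9 lower without overlap (8.25% and 7.90% of all genes). The level of Cox6a2 had the same order as the Purkinje markers across the KO PCs but not across the WT PCs. Among the KO PCs the highest value belonged to replicate 3, with the strongest markers, and among the WT PCs the lowest value belonged to replicate 3, which also had the strongest markers.

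Between KO PCs and KO VMs Cox6a2 was 1.88-fold higher (log2 fold change 0.91, SE 0.16, adjusted p = 0.013, quasi-likelihood test of edgeR, Benjamini-Hochberg correction across 10856 genes). It was the only one of the 81 to pass, where 0.847% of all genes passed. The call was lost without KO VM replicate 2 (adjusted p = 0.0673, edgeR) or KO VM replicate 3 (adjusted p = 0.0729). It was also lost with all 12 libraries in 1 fit (adjusted p = 0.159, edgeR). With the KO PC libraries of weak Purkinje markers left out, a choice made after seeing the data, 1 KO PC library remained and the log2 fold change was 1.22.

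Between WT PCs and WT VMs the log2 fold change of Cox6a2 was 1.05 (SE 0.23), and it did not pass (adjusted p = 0.284, edgeR); no subunit gene passed, where 0.108% of all genes did. Without WT PC replicate 2 it was 0.97 and passed (adjusted p = 0.0368), alone among the 81, where 0.850% of all genes passed. DESeq2 and limma voom with sample weights also called it over all 6 libraries (adjusted p = 0.0184 and 0.017). With a correction for transcript length and GC content the log2 fold change was 0.69 (adjusted p = 0.728, edgeR).

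Over both genotypes and all 12 libraries Cox6a2 was 1.97-fold higher in PCs (log2 fold change 0.98, SE 0.15, adjusted p = 0.00312, edgeR), where 1.20% of all genes passed. It passed in all 23 alternatives run for this comparison, with log2 fold changes of 0.79 to 1.09. Cox6a1, the form used in most tissues, was at 104, 149 and 101 CPM in the WT PCs, 88.1, 73.1 and 81.3 CPM in the KO PCs, 86.1, 80.5 and 68.7 CPM in the WT VMs and 108, 70.2 and 81.1 CPM in the KO VMs. It was above all WT VMs in the WT PCs only, and the groups overlapped in the KO.

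The share of the heart form, computed from counts per kilobase within each library and so free of scaling, was 92.8%, 90.2% and 90.8% for COX6A in the WT PCs and 90.2%, 90.8% and 93.0% in the KO PCs. It was 87.5%, 90.1% and 87.0% in the WT VMs and 82.9%, 85.7% and 84.5% in the KO VMs. All 6 PCs lay above all 6 VMs, though 4 PCs (WT replicates 2 and 3, KO replicates 1 and 2) exceeded WT VM replicate 2 by under 1 percentage point. The mean difference was 5.02 percentage points (exact permutation test within genotype, two-sided, p = 0.005, the smallest it can give; 0.075 after adjustment over the 15 isoform tests). Within a genotype 3 against 3 libraries cannot go below 0.10. The COX7A share (Cox7a1) was 60.8% to 73.3% in PCs and 60.5% to 74.1% in VMs, and the COX8 share (Cox8b) 90.0% to 95.9% and 89.6% to 94.3%. In both pairs the cell types overlapped, with differences over both genotypes of -0.21 (p = 0.945) and -0.07 percentage points (p = 0.94, exact permutation tests).

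**Figure D4:**
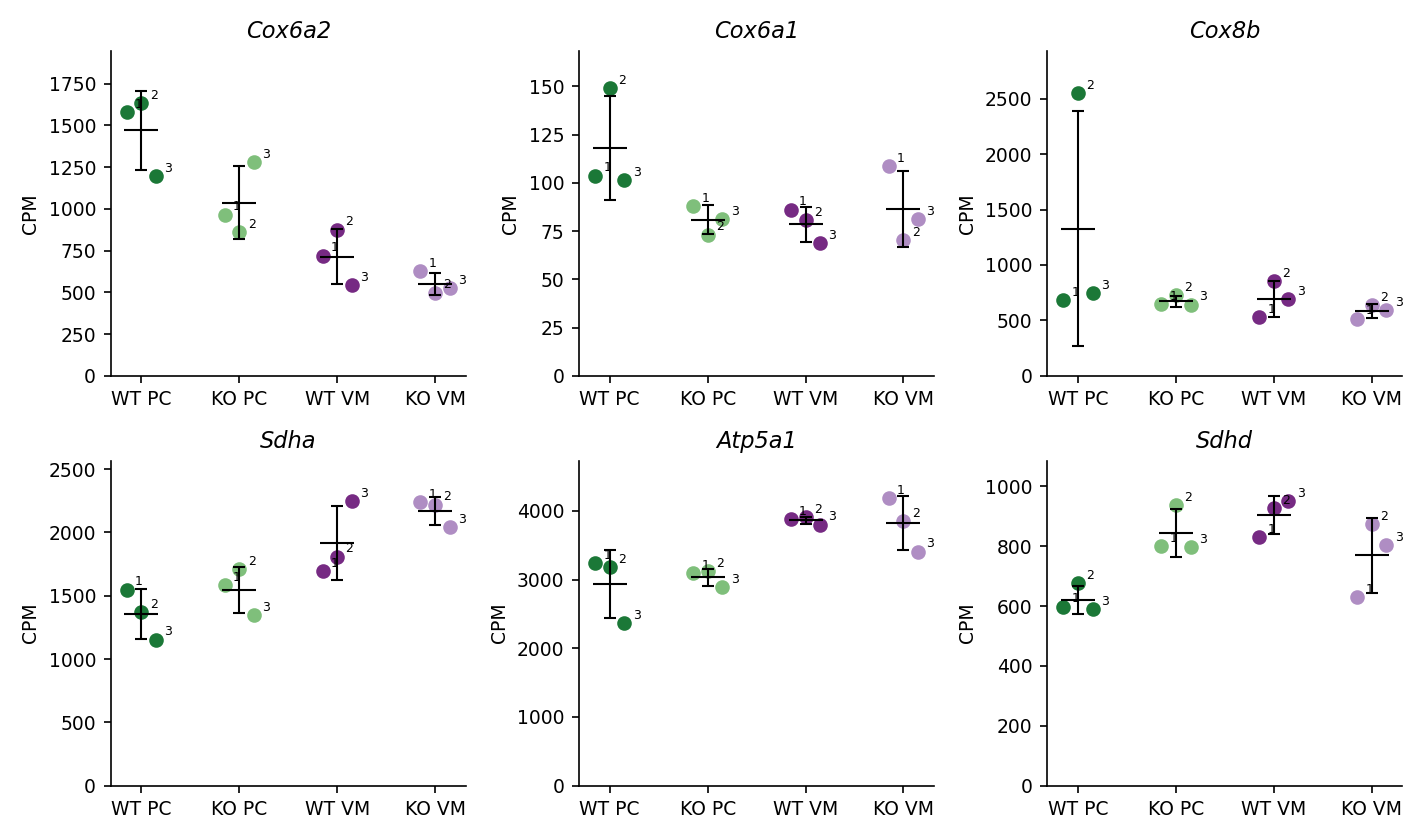
Levels (CPM) of 6 subunit genes in the 12 libraries; points are libraries numbered by replicate, with mean and SD bars. Cox6a2 is higher in PCs than in VMs within each genotype (1582, 1632 and 1195 against 720, 876 and 546 CPM in WT), and Sdha and Atp5a1 are lower. Sdhd is lower in WT PCs than in WT VMs and KO PCs. Cox8b is highest in WT PC replicate 2, and in KO it lies at 643 to 728 CPM in PCs and 517 to 638 CPM in VMs.

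On the opposite side, Sdha and Atp5a1 had lower values in PCs. Sdha, the flavoprotein that oxidises succinate in complex II, was at 1549, 1371 and 1154 CPM in the WT PCs and 1584, 1710 and 1348 CPM in the KO PCs. In VMs it was at 1698, 1809 and 2250 CPM (WT) and at 2241, 2221 and 2041 CPM (KO). The cell types did not overlap within either genotype, and the highest PC value lay just above the lowest VM value when genotypes were pooled. The log2 fold change was -0.49 in each genotype (WT SE 0.20, KO SE 0.13). Over both genotypes it was -0.49 (SE 0.12), just outside the threshold (adjusted p = 0.0517, edgeR). It passed in 7 of the 23 alternatives, among them without WT PC replicate 2 (adjusted p = 0.0133).

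Atp5a1, the alpha subunit of the F1 head of the ATP synthase, was at 3244, 3188 and 2368 CPM in the WT PCs and 3091, 3122 and 2887 CPM in the KO PCs. It was at 3881, 3907 and 3801 CPM in the WT VMs and 4190, 3854 and 3407 CPM in the KO VMs, so all 6 PCs lay below all 6 VMs. Over both genotypes the log2 fold change was -0.36 (SE 0.11, adjusted p = 0.119, edgeR), and it passed in 2 of the 23 alternatives, limma voom (adjusted p = 0.00365) and without WT PC replicate 2 (-0.40, adjusted p = 0.027, edgeR). Its partner in the F1 head, Atp5b, was at 3577, 4610 and 2685 CPM in WT PCs and 4011, 4097 and 3895 CPM in WT VMs, with log2 fold changes of -0.13 in WT (-0.35 without replicate 2) and -0.14 in KO. In the KO it overlapped, at 3235, 3659 and 3821 CPM in PCs and 4199, 3857 and 3785 CPM in VMs.

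Over the 81 genes, the direction in WT depended on replicate 2. In WT PCs against WT VMs 57 of the 81 had a positive log2 fold change with a median of 0.27, where the median of all genes was 0.00. At an unadjusted p under 0.05, 3 members were higher (5.16% of all genes were) and 2 lower (1.13% of all genes). Without replicate 2, 63 of 81 were negative with a median of -0.14, and at that level 1 was higher (7.11% of all genes) and 9 lower (3.13% of all genes). In KO PCs against KO VMs 65 of 81 were negative, with a median of -0.14 against -0.01 for all genes. Without KO PC replicate 3, 51 of 81 were negative with a median of -0.07, and with KO PC replicates 1 and 2 left out 67 were, with a median of -0.25. With all 6 libraries 2 members were higher (6.75% of all genes) and 8 lower (3.22% of all genes) at an unadjusted p under 0.05. Scaled to plain totals, the KO median was -0.02 where all genes had shifted to 0.11, so relative to all genes it was -0.13.

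Over both genotypes the median was 0.04, with 4 members higher (8.07% of all genes) and 7 lower (3.49%) at an unadjusted p under 0.05. Without WT PC replicate 2 it was -0.17, with 64 of 81 negative, 2 higher (9.56% of all genes) and 24 lower (5.81% of all genes). After adjustment the same fit called 3 members, Cox6a2, Sdha and Atp5a1, where 3.69% of all genes passed.

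By complex, and without WT PC replicate 2, the medians of WT PCs against WT VMs were -0.13 for complex I, -0.36 for complex II, -0.14 for complex III, -0.11 for complex IV and -0.16 for complex V. In KO PCs against KO VMs, which share no library with these, they were -0.14, -0.15, -0.22, -0.05 and -0.14. With replicate 2 the WT medians of complexes I, III, IV and V were 0.28, 0.35, 0.39 and 0.06, and that of complex II was -0.30. Leaving replicate 2 out, complex V summed to 17938 to 20213 CPM in 5 PCs and 21308 to 23654 CPM in 6 VMs, with no overlap, and in replicate 2 it summed to 28868 CPM. The sums of complexes I to IV overlapped between the cell types.

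Among the core subunits of complex I, Ndufs1 was at 744, 893 and 719 CPM in WT PCs. It was at 944, 966 and 1021 CPM in WT VMs, and did not overlap there. In the KO it overlapped, at 698 to 885 CPM in PCs and 591 to 1078 CPM in VMs. Ndufv1, which binds NADH, was lower in the PCs of both genotypes without overlap, at 519, 328 and 451 against 532, 607 and 536 CPM in WT and at 571, 520 and 568 against 823, 574 and 574 CPM in KO. Its log2 fold changes were -0.36 in WT (-0.20 without replicate 2) and -0.25 in KO. Those of Ndufs3, Ndufs7, Ndufs8 and Ndufv2 lay between -0.23 and 0.41 in WT, between -0.44 and 0.24 without WT PC replicate 2, and between -0.28 and -0.07 in KO, and none passed.

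In complex III the Rieske protein gene Uqcrfs1 was at 1307, 1490 and 1266 CPM in KO PCs and 1783, 1647 and 1737 CPM in KO VMs (log2 fold change -0.35, SE 0.12, adjusted p = 0.278, edgeR). In WT it overlapped, at 1375, 1298 and 1349 CPM in PCs and 1365, 1562 and 1524 CPM in VMs. Cyc1, the cytochrome c1 gene, had log2 fold changes of -0.02 in WT (-0.15 without replicate 2) and -0.29 in KO. Uqcrc1 had 0.21 in WT, -0.21 without replicate 2 and -0.19 in KO. In complex IV the subunits Cox4i1, Cox5a and Cox5b had WT values of 0.10, -0.34 and 0.18, which without replicate 2 were -0.14, 0.02 and -0.09. Their KO values were -0.04, -0.14 and 0.16. Sdhb of complex II had 0.19 in WT, -0.21 without replicate 2 and -0.17 in KO. None of these passed.

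In the KO comparison Cox6c followed Sdha and Uqcrfs1 by p, at -0.41 (SE 0.15, adjusted p = 0.282, edgeR). In WT the next after Cox6a2 were Sdhd at -0.53, Cox8a at 0.69, Sdha and Cox6a1 at 0.59, with adjusted p of 0.682 to 0.775 (edgeR). Without replicate 2 these were -0.60 for Sdhd, 0.42 for Cox8a, -0.50 for Sdha and 0.40 for Cox6a1. Over both genotypes the next after Atp5a1 were Ndufv3 at 0.64 and Ndufa9 at -0.33 (adjusted p = 0.238 and 0.264, edgeR). Ndufv3, an accessory subunit beside the NADH site, was higher in PCs without overlap in both genotypes, and Ndufa9 was lower without overlap in both. The shares of all genes without overlap are given above with Cox6a2. Ndufv3 stood at 233, 656 and 231 CPM in WT PCs against 227, 223 and 157 CPM in WT VMs, so its WT difference without replicate 2 was small (0.21).

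**Figure D5:**
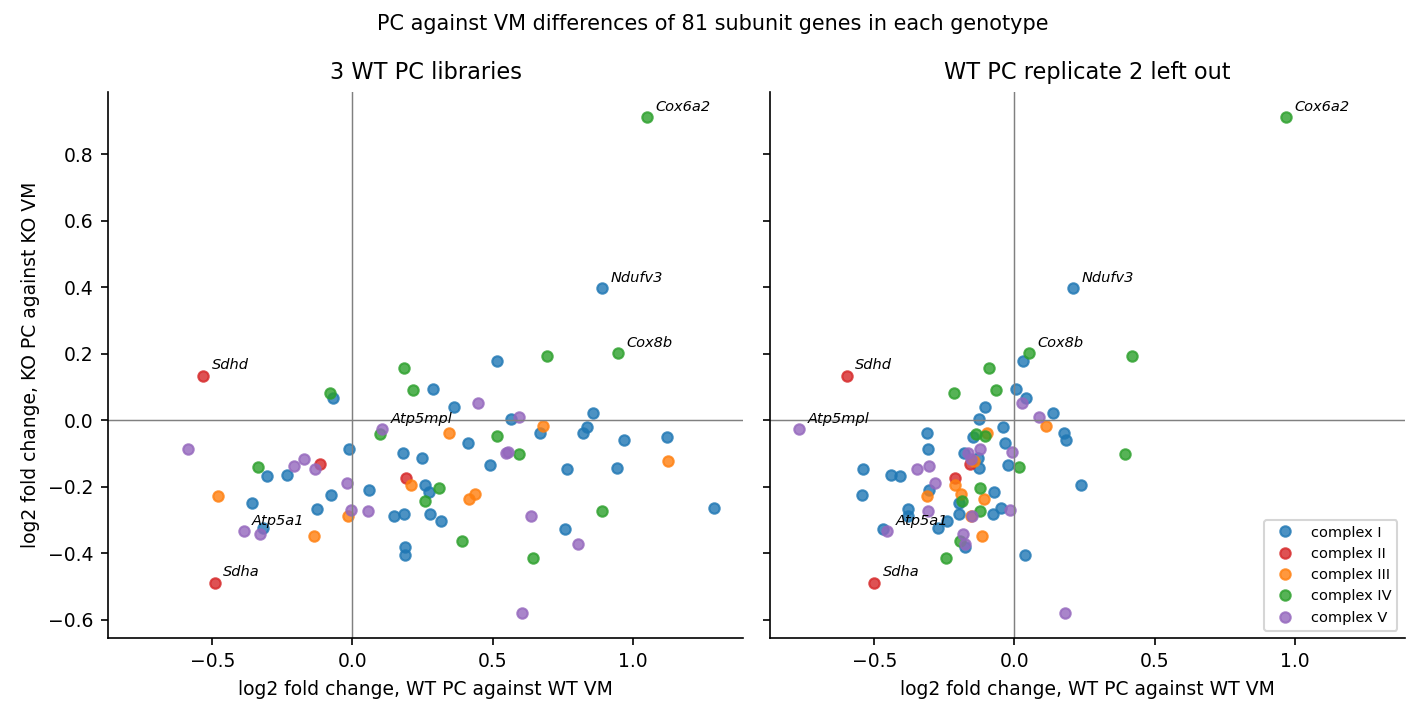
Each point is 1 of 81 subunit genes coloured by complex; axes are the log2 fold change of PCs against VMs in WT (horizontal) and KO (vertical), with all 3 WT PC libraries on the left and WT PC replicate 2 left out on the right. On the right 57 genes are negative in both genotypes and 10 positive in both, with Cox6a2 alone at the upper right.

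The WT and KO contrasts share no library. With replicate 2 left out, 57 of 81 members were negative in both, 10 positive in both, 8 positive in WT only and 6 positive in KO only, and Pearson's r across the genes was 0.51 (Spearman 0.42). With replicate 2 kept the figures were 21, 13, 44 and 3, and r was 0.29 (Spearman 0.26). Genes within a library share its depth and composition and are not independent replicates.

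The second question was whether loss of Ncam-1 changed these genes. In PCs no member passed in KO against WT, nor did any gene (0% of 12071). Ncam1 itself was thus not called, though it had 83, 34 and 116 counts in the WT PCs and 0, 1 and 1 in the KO PCs. A missing call in this fit therefore says little about the subunit genes. At an unadjusted p under 0.05, 1 member was higher (0.621% of all genes) and 2 lower (2.62% of all genes). DESeq2 and limma voom also called no member. The median of the 81 was -0.32 with all WT PCs and 0.08 without replicate 2, where all genes had medians of 0.01 and 0.00, so the lower level in KO PCs rested on that library.

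By p the first members were Ndufa2 (-1.43), Sdhd (0.45), Ndufb7 (-0.97), Uqcrb (-1.26) and Ndufa12 (-0.89), each with adjusted p = 0.991 (edgeR). Without WT PC replicate 2 Sdhd was at 0.52, and the other 4 lay between -0.19 and 0.02. Ndufa2, an accessory subunit of complex I, shows how 1 library carried such values. It was at 192, 1198 and 236 CPM in the WT PCs and 236, 215 and 151 CPM in the KO PCs. Uqcrb, at 198, 1131 and 234 against 221, 232 and 198 CPM, changed sign to 0.02 without it.

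In VMs no member passed in KO against WT, where 0.0372% of all genes passed, and DESeq2 and limma voom called none either. At an unadjusted p under 0.05, 5 members were higher (2.02% of all genes) and 2 lower (3.12% of all genes), and the median was 0.07 against -0.01 for all genes (0.03 without KO VM replicate 1 and 0.18 without KO VM replicate 2). The first by p was Atp5mpl, a small membrane subunit of the ATP synthase, at 284, 310 and 303 CPM in the KO VMs and 286, 591 and 565 CPM in the WT VMs (log2 fold change -0.68, SE 0.20, adjusted p = 0.742, edgeR). WT VM replicate 1 lay within the KO values, and without that library the log2 fold change was -0.95 and passed (adjusted p = 0.0067, edgeR). The next were Cox6c at 0.41, Cyc1 at 0.33, Uqcrq at 0.33 and Cox6a2 at -0.37, each with adjusted p = 0.930 (edgeR). Cyc1 did not overlap, at 665, 487 and 556 CPM in KO against 408, 482 and 473 CPM in WT. In this comparison 3 members were higher without overlap (4.47% of all genes) and 0 lower (5.26% of all genes).

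Cox6a2 had lower values in the KO in both cell types. In PCs the log2 fold change was -0.50 (SE 0.23, adjusted p = 0.991, edgeR) and in VMs -0.37 (SE 0.16, adjusted p = 0.930), and the genotypes overlapped in both. The heart share of COX6A differed by -3.86 percentage points between KO VMs and WT VMs without overlap (exact permutation test, p = 0.1, the smallest it can give) and by 0.08 percentage points in PCs (p = 0.7, exact permutation test).

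The difference of the genotype effects between PCs and VMs was tested over all 12 libraries. By edgeR no member and no gene was called, Ncam1 included (0% of 11506). DESeq2 and limma voom called no member. At an unadjusted p under 0.05, 1 member was higher (1.03% of all genes) and 3 lower (1.86% of all genes). The higher one was Sdhd, a membrane anchor of complex II, at 0.68 (SE 0.23, adjusted p = 1, edgeR). It was at 599, 676 and 589 CPM in the WT PCs, below all libraries of WT VMs (831, 929 and 952 CPM) and KO PCs (801, 937 and 798 CPM), while the KO VMs spread from 631 to 874 CPM. The 3 lower ones were Atp5s (-1.17), Ndufa2 (-1.53) and Cox6a1 (-0.68), and Cox6c (-1.04) came next. Without WT PC replicate 2 these were -0.75, -0.20, -0.49 and -0.16, and Sdhd was at 0.74. The median of the 81 was -0.42 with all libraries and 0.03 without WT PC replicate 2.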

How the data were processed

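The deposited tables hold raw read counts per gene, 1 table per library. The authors aligned paired 50-base reads to mm10 with STAR (version 2.5.0c), counted them with HTSeq (version 0.6.0) and amplified the RNA of the sorted cells with a low-input kit before sequencing; whether counting used strand is not given in the sources used here. Genes were matched by Ensembl identifier to GENCODE M21. Mitochondrial genes were left out of library sizes, and levels are CPM over the remaining counts with TMM factors. Each pair of groups was compared with edgeR 4.0.16 (quasi-likelihood test, R 4.3.3) on counts of genes with a mean normalized count above 5, p-values being adjusted by Benjamini-Hochberg across every gene tested, at a threshold of 0.05. The comparison over both genotypes and the difference of genotype effects used all 12 libraries. Isoform shares were compared by exact permutation tests, two-sided. DESeq2 1.42.0, limma 3.58.1 (voom with sample weights), other scalings and filters, a length and GC correction, a replicate block and leaving out each library were alternatives; leaving out the KO PCs with weak Purkinje markers was added after the data were seen. The scripts were tested on simulated counts.

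Genes named with values were the core subunits and isoform pairs, every member past the threshold and the 5 with the smallest p in each comparison, the 3 highest and 3 lowest per kilobase, and members with 3 or fewer counts in every library. The members, lists and rules were chosen with earlier results of these data known. The values of 1 core subunit are not reported here.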

Additional observations from a re-analysis of the deposited data

How the results depend on the processing

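Numbers of subunit genes past the adjusted threshold moved with several settings. For WT PCs against WT VMs the count of 0 became 1 with DESeq2, with limma voom and with all 12 libraries in 1 fit, and 8 with no filter on low counts; leaving out 1 library gave 0 to 1. For KO PCs against KO VMs the count of 1 became 2 with DESeq2 and with no filter, 0 with all 12 libraries in 1 fit, and 0 to 1 leaving out 1 library. With no filter the counts were 6 for KO against WT PCs, 1 for KO against WT VMs and 1 for the difference of genotype effects. Leaving out WT VM replicate 1 gave 1 for KO against WT VMs (range 0 to 1). Over both genotypes the count of 1 became 2 with DESeq2, 4 with limma voom, 5 with no filter, 2 with filterByExpr, 2 with KO PC replicates 1 and 2 and WT PC replicate 2 left out, and 1 to 3 leaving out 1 library. For most of these settings the share of all genes that passed is not given here. The counts therefore do not show whether the subunit genes moved more than other genes. The cause was not tested.

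Same-numbered libraries correlated at 0.20, 0.08 and 0.14 between WT PCs and WT VMs, each the best match of its PC as a hint from the data, and at -0.08 to 0.12 in the other pairs of groups (8323 genes). The labels give no shared animal or day, and in no pair of groups did all 3 correlations pass 0.1, so the numbers were not taken as pairs. With the replicate block 2 subunit genes passed for KO PCs against KO VMs, Cox6a2 and Sdha (-0.49, adjusted p = 0.0273, edgeR), and 2 passed with the length and GC correction added. The share of all genes that passed in these fits is not given here either.

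The median of the difference of genotype effects (-0.42) was 0.0021 with limma voom and -0.58 to 0.0293 leaving out 1 library (0.0293 without WT PC replicate 2). Uqcrb in KO against WT PCs reversed to 0.0216 without WT PC replicate 2 (range -1.65 to 0.0216 leaving out 1 library). Leaving out 1 library, shares of the heart form (percentage points) changed sign for COX6A in KO against WT PCs (-0.740 to 0.828), for COX7A in KO against WT PCs (-4.94 to 1.30) and over both genotypes (-1.74 to 1.38), and for COX8 in WT PCs against VMs (-1.67 to 0.773), KO PCs against VMs (-1.08 to 1.26), KO against WT PCs (-2.20 to 0.402) and over both genotypes (-0.794 to 0.522).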

Other observations

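Genes that feed the respiratory chain were also compared. The 14 citric acid cycle genes summed to 9953 to 11865 CPM in the 6 PCs and 12201 to 14127 CPM in the 6 VMs, with no overlap, WT PC replicate 2 included. In KO PCs against KO VMs 14 of 14 had negative log2 fold changes with a median of -0.22, and 3 of the 14 were lower at an unadjusted p under 0.05, where 3.22% of all genes were and the median of all genes was -0.01. None passed adjustment by edgeR. Without WT PC replicate 2 the comparison over both genotypes called 1, Sucla2 (a subunit of succinyl-CoA ligase), at -0.48 (adjusted p = 0.0399, edgeR), where 3.69% of all genes passed. With that library its value was -0.36 (adjusted p = 0.396, edgeR).

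The 20 genes of electron carriers and exchange summed to 12628 to 15386 CPM in PCs and 15430 to 16725 CPM in VMs. In KO PCs against KO VMs 18 of 20 were negative with a median of -0.16. Etfdh, which passes electrons from fatty acid oxidation to ubiquinone, was at -0.40 over both genotypes (adjusted p = 0.119, edgeR), and it passed without WT PC replicate 2 (-0.40, adjusted p = 0.0429), where 3.69% of all genes passed.

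Of the assembly factors 40 were tested in KO PCs against KO VMs, and 32 were negative with a median of -0.11. Of the 15 regulators of mitochondrial biogenesis 13 were negative, also with a median of -0.11. No gene of either list passed by edgeR in any comparison; at an unadjusted p under 0.05 3 assembly factors and 0 regulators were lower in this one, where 3.22% of all genes were. Ppargc1a, a coactivator of mitochondrial biogenesis, ranged from 254 to 754 CPM in PCs and from 462 to 841 CPM in VMs.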
